A study of Mus musculus with 12 samples.

Results

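The genes described here encode the natriuretic peptides Nppa, Nppb and Nppc, their receptors Npr1, Npr2 and Npr3, the proteases Corin and Mme, and Prkg2, the type 2 cGMP-dependent protein kinase. Members were chosen by name, with 1 row of the deposited table per gene (the row with the highest mean over the 12 arrays), and all 9 had a row of their own among the 19687 genes compared. The thoracic aorta of 12 C57BL/6 mice was profiled on Affymetrix mouse exon arrays, 1 mouse per array and none pooled. The 7 transgenic mice, described as male, carried dominant-negative human PPARγ with the P467L mutation, which interferes with the normal receptor (a transcription factor switched on by lipid ligands), driven by the promoter of smooth muscle myosin heavy chain. The 5 nontransgenic mice were littermates without the transgene. Age is not stated, nor is sex stated separately for the littermates. The transgene is confined to cells that use that promoter, while the RNA came from the whole dissected vessel. In such bulk tissue, fewer cells of a type and less RNA per cell cannot be told apart.

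Natriuretic peptides are hormones that relax blood vessels and promote salt excretion. Atrial and B-type peptide come mainly from heart muscle, and C-type peptide acts locally and is made by endothelium among other cells. Npr1 and Npr2 are guanylyl cyclases that make cyclic GMP when a peptide binds, and cyclic GMP then activates protein kinases of the Prkg family. Npr3, the clearance receptor, has no cyclase domain: it takes peptides up for degradation and can signal through inhibitory G proteins. Corin cuts the atrial peptide precursor, and Mme (neprilysin) degrades the peptides.

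The set was selected on measured values too: the P467L minus nontransgenic differences of Npr3, Prkg2 and Npr1 were known when it was drawn up. Those differences are therefore given as a description, and the calls of the fit across all genes are no independent support for them. Across that fit 2 of the 9 genes, Npr3 (lower) and Prkg2 (higher), had a limma adjusted p under 0.05, where 0.244% of all genes did (0.127% lower and 0.117% higher). The groups did not overlap for 3 of the 9, Npr3, Npr1 and Prkg2, against 0.726% of all genes. Npr3 and Npr1 were the lower ones (0.35% of all genes) and Prkg2 the higher one (0.376%). An unadjusted p under 0.05 was found for 4 of the 9, these 3 and Nppb, and for 4.82% of all genes. The median difference over the 9 genes was -0.04 on the log2 scale and the median over all genes was 0.00. The median size of the difference, regardless of sign, was 0.07 over the 9 and also 0.07 over all genes.

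**Figure D1:**
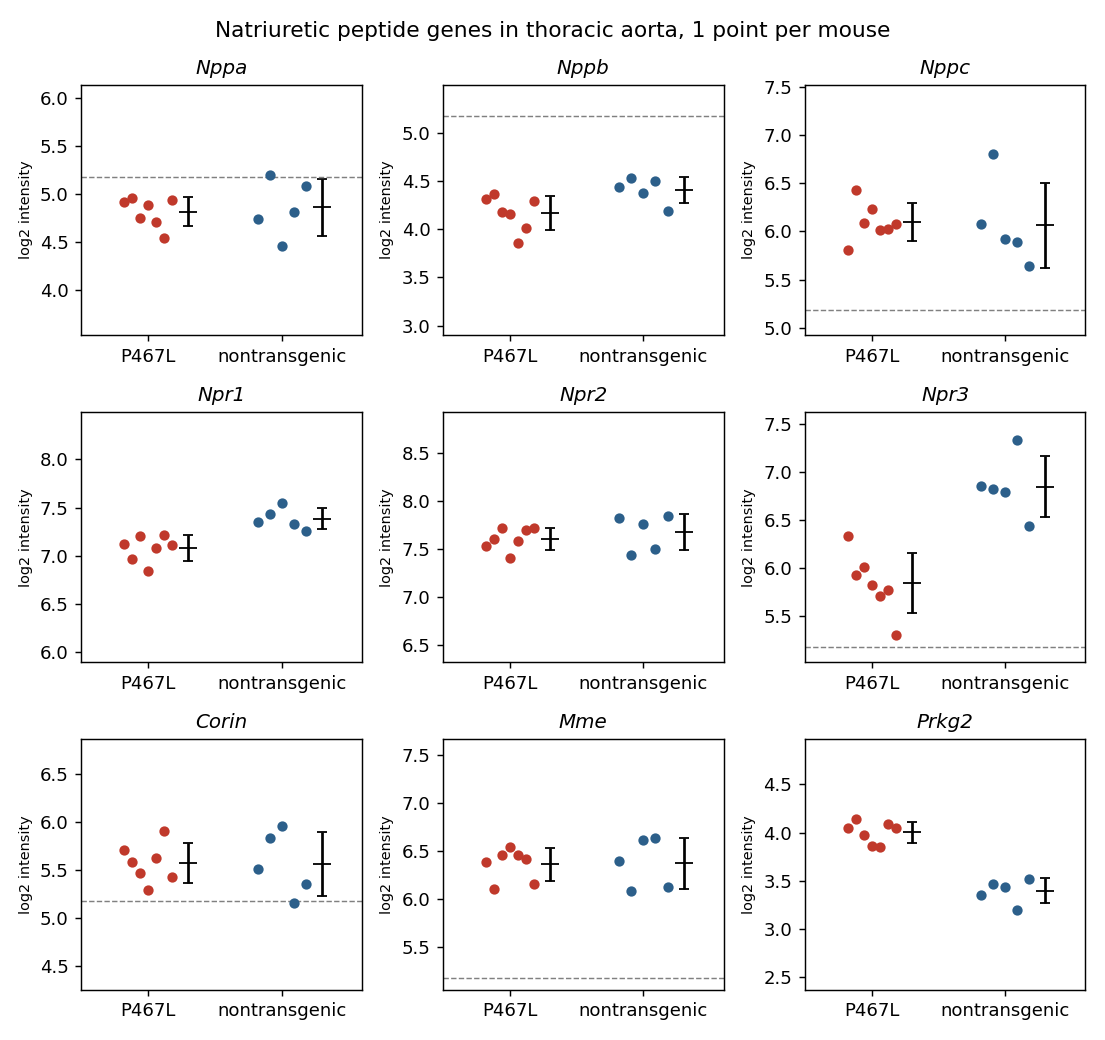
Log2 intensity (vertical axis) of each gene in 7 P467L and 5 nontransgenic aortas, 1 point per mouse, with the group mean and SD beside the points. Every panel spans the same number of log2 units, and the dashed line is the background level of 5.18, which lies above the Prkg2 panel and below the Npr1 and Npr2 panels. Npr3, Npr1 and Prkg2 are the genes whose groups do not overlap.

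The promoter windows of both receptors that were lower in every P467L aorta are shown because the transgene encodes a DNA-binding receptor. They run from 250 bases before to 50 bases after the annotated gene start, 5′ to 3′ on the strand of the gene, as RefSeq gives them for GRCm38.p6. The arrays were annotated on mm9, and no position was carried over between the builds. Npr3 lies on the minus strand at chr15:11907322-11907621 and Npr1 on the minus strand at chr3:90465817-90466116. Capitals mark an uninterrupted run of AAG units in Npr3, and GGGCGG (GC box), read on either strand, in Npr1.
Npr3: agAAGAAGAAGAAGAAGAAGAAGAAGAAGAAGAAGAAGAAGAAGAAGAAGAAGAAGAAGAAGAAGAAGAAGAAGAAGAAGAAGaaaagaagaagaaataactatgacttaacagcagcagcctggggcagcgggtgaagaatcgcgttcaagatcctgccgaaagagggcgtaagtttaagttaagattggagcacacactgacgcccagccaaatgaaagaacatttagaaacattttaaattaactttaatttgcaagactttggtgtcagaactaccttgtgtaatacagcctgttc
Npr1: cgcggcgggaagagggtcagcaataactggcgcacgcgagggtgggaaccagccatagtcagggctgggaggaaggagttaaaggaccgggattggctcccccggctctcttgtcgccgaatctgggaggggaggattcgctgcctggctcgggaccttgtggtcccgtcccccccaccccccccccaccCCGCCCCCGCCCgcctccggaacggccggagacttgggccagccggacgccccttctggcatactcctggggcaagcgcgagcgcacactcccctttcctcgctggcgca

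The Npr3 window opened with 27 AAG units and had a GC content of 39.0%, lower than that of all but 8.38% of the 32851 windows in the table. The Npr1 window had a GC content of 69.7%, higher than that of 90.4% of all windows, and held 2 copies of GGGCGG, a motif found in 35.7% of all windows. The direct repeat bound by PPARγ with its partner RXR was searched on both strands as 2 copies of AGGTCA with 1 base of any kind between them, and AGGTCA was also searched alone. Neither was found in the 10 windows of the 8 genes that had one (all but Prkg2). Among all windows 0.0396% held the full motif and 16.3% a single AGGTCA, which also lies within the full motif. The result says only that these letters are not in these windows.

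Npr3 was lower in P467L aorta by about 1 log2 unit. It lay between 5.31 and 6.34 in the 7 P467L aortas, with a median of 5.83. The nontransgenic aortas had 6.86, 6.82, 6.79, 7.33 and 6.44. The highest P467L aorta was thus below the lowest nontransgenic one, by 0.10 log2 units, and all 12 values were above the background level. That level, 5.18, is the 95th percentile of the means of 918 genes for odorant and vomeronasal receptors, a class that is silent outside sensory tissue with few exceptions. The means were 5.84 ± 0.31 in P467L and 6.85 ± 0.32 in nontransgenic aorta (SD, n = 7 and 5), a log2 difference of -1.004 ± 0.17 (SE), or 0.499 times the nontransgenic level. In the fit across all genes Npr3 ranked 29 by p (limma adjusted p = 0.0288).

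Both groups have replicates numbered 1 to 5, and the P467L minus nontransgenic difference of Npr3 lay between -1.51 and -0.52 for these 5 numbers. With the number as a block the difference was -0.88 ± 0.14 (SE; limma adjusted p = 0.0888), which no longer passed the threshold. Leaving out any 1 of nontransgenic replicates 1 to 4 or P467L replicates 2, 4, 5 and 6 also ended the call, with limma adjusted p between 0.0567 and 0.0915. The difference itself stayed between -1.13 and -0.88 under all 24 alternative fits.

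Transcripts of brown adipocyte markers varied between the mice, and Npr3 varied with them once the group means were removed. Over the 12 aortas, deviations of Npr3 from its group mean had a Pearson r of 0.78 (Spearman rho 0.66) with deviations of the mean of 7 brown adipocyte markers, and 0.56 without the 2 arrays farthest from the median. Within the 7 P467L aortas r was 0.73. Other lists moved with Npr3 too. For the general adipocyte markers r was 0.55 (rho 0.61) over the 12 aortas and 0.86 within P467L. For the nerve and Schwann cell markers r was 0.42 (rho 0.66) and 0.65 within P467L. Smooth muscle markers ran against Npr3 (r = -0.44, and -0.71 within P467L). Of the 10637 genes above background, 44 (0.414%) followed the brown adipocyte markers more closely than Npr3 did. The 10637 include those brown adipocyte markers that are themselves above background. The aorta with the lowest marker level, P467L replicate 7 at 6.81, had the lowest Npr3 value, and the one with the highest marker level, nontransgenic replicate 4 at 8.27, had the highest.

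The marker list itself ranged from 6.81 to 8.004 in P467L and from 7.27 to 8.27 in nontransgenic aorta, with 0 of 7 members past the threshold and 6 above background, all but Elovl3. With the marker mean as a covariate the Npr3 difference was -0.96 ± 0.12 (SE; limma adjusted p = 0.00938), and with 8 general adipocyte markers it was -0.92 ± 0.15 (SE; limma adjusted p = 0.0348). The general adipocyte list lay between 6.01 and 6.56 in P467L and between 6.33 and 6.74 in nontransgenic aorta, with Lep the only one of its 8 members below background. Without a covariate the difference was -1.004. The brown adipocyte covariate was chosen after seeing the data. A marker mean in a linear fit does not hold the cell content of the vessel constant, and the part of fat cells in the Npr3 difference was not tested.

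**Figure D2:**
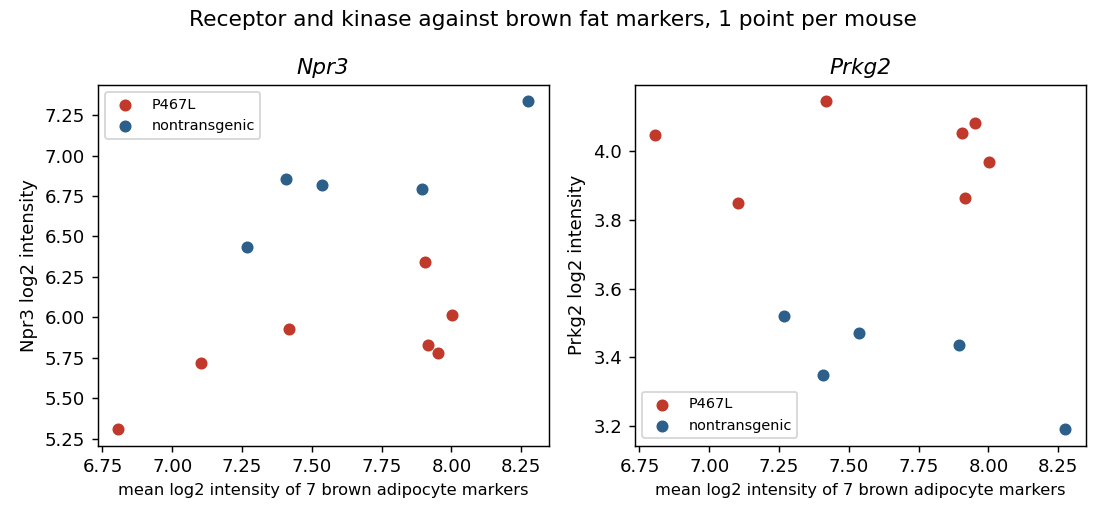
Log2 intensity of Npr3 (left) and Prkg2 (right) against the mean log2 intensity of 7 brown adipocyte markers, 1 point per mouse, P467L in red and nontransgenic in blue. Within each group Npr3 tends to be higher in aortas with more marker signal, and all P467L points lie below all nontransgenic points; Prkg2 is the reverse between the groups.

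The 5 genes above background whose deviations were most like those of Npr3 over the 12 aortas were Zfp202 (r = 0.88), Slc36a2 (r = 0.88), Etfb (r = 0.86), Ppara (r = 0.85) and Tkt (r = 0.84), of 10636 compared. Slc36a2 is an amino acid transporter known as a marker of brown fat, Etfb a subunit of a mitochondrial electron carrier of fatty acid oxidation, Ppara the fatty acid sensing relative of PPARγ and Tkt transketolase. Their own correlations with the brown adipocyte markers lay between 0.57 (Zfp202) and 0.91 (Tkt), and Ppara is itself 1 of these markers. None of the 5 passed the threshold between the groups: their differences lay between -0.27 (Ppara) and 0.17 (Tkt). These are the highest of 10636 correlations over only 12 arrays. The 5 highest for Prkg2, a gene under background in all 12, were nearly as large (0.81 to 0.87). How high such a top lies for other genes was not tested.

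Npr1, the receptor of atrial and B-type peptide, was lower in P467L aorta by a smaller amount. P467L aortas ranged from 6.84 to 7.21, with a median of 7.11. The nontransgenic values were 7.35, 7.43, 7.55, 7.33 and 7.25. The groups did not overlap, but the gap between them was only 0.04 log2 units. The difference was -0.31 ± 0.08 (SE), or 0.808 times the nontransgenic level, with a 95% interval of -0.48 to -0.13. P467L was lower for all 5 replicate numbers, which follows from the groups not overlapping. Over all genes it did not pass the threshold (limma adjusted p = 0.281; 0.174 to 0.887 over 24 alternative fits). Its deviations hardly followed those of Npr3 (r = 0.08, rho = -0.04, over 12 aortas) or the brown adipocyte markers (r = 0.16). They ran against those of 9 skeletal muscle markers (r = -0.71, rho = -0.54; r = -0.47 without the 2 farthest), which were highest in P467L replicate 4, the aorta with the lowest Npr1 value. Without that aorta the Npr1 difference was -0.27 ± 0.08 (SE; limma adjusted p = 0.457).

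Npr2, the receptor of C-type peptide, overlapped in part between the groups. It lay between 7.41 and 7.72 in P467L (median 7.60), while the nontransgenic aortas had 7.82, 7.44, 7.76, 7.51 and 7.84, of which 3 were above every P467L value. Its difference was -0.07 ± 0.09 (SE), with a 95% interval of -0.26 to 0.13, so a fall as large as that of Npr3 lies outside the interval.

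Prkg2 was higher in P467L aorta, at signal levels under background in both groups. The P467L aortas had 3.85 to 4.14, with a median of 4.05. The nontransgenic aortas had 3.35, 3.47, 3.44, 3.19 and 3.52. The groups were separated by 0.33 log2 units. The means were 4.00 ± 0.11 in P467L and 3.39 ± 0.13 in nontransgenic aorta (SD, n = 7 and 5), a difference of 0.61 ± 0.08 (SE), or 1.52 times. It ranked 8 by p over all genes (limma adjusted p = 0.00719).

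Prkg2 was under 5.18 in all 12 aortas, and 75.3% of the 918 receptor genes had a lower mean. Among those receptor genes 0 passed the threshold in limma (61 had an unadjusted p under 0.05), 8 differed by at least as much as Prkg2 in either direction, and the groups did not overlap in 9 (0.980%). Both held for 4 receptor genes: a difference at least that large and no overlap. Each of the 5 replicate numbers had the higher Prkg2 value in the P467L aorta, by 0.33 to 0.70, a direction that follows from the groups not overlapping. With the number as a block, an estimate that again rests on replicates 1 to 5 of each group, the difference was 0.58 ± 0.08 (SE, limma adjusted p = 0.0682), past the threshold no longer. Leaving out any 1 array kept the call (limma adjusted p between 0.0101 and 0.0303). Prkg2 deviations followed neither the brown adipocyte markers (r = -0.30) nor those of Npr3 (r = -0.35, rho = -0.21, and r = -0.53 without the 2 farthest) closely over the 12 aortas. They ran against several other lists, among them cardiac muscle markers (r = -0.48, and -0.83 within P467L) and macrophage markers (r = -0.31, and -0.66 within P467L). For fibroblast markers r was -0.29, and -0.65 without the 2 farthest. For the upper quartile of the whole array it was -0.41, and -0.65 within P467L. The highest r with a marker list was 0.31 (nerve and Schwann cell). These relations were not tested.

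By the same measure, the genes most like Prkg2 were Caskin2 (r = 0.87), Ephb4 (r = 0.85), Gm5731 (r = 0.83), Ngef (r = 0.82) and Trim45 (r = 0.81). None of them passed the threshold between the groups, with differences between -0.08 (Caskin2) and 0.52 (Gm5731).

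**Figure D3:**
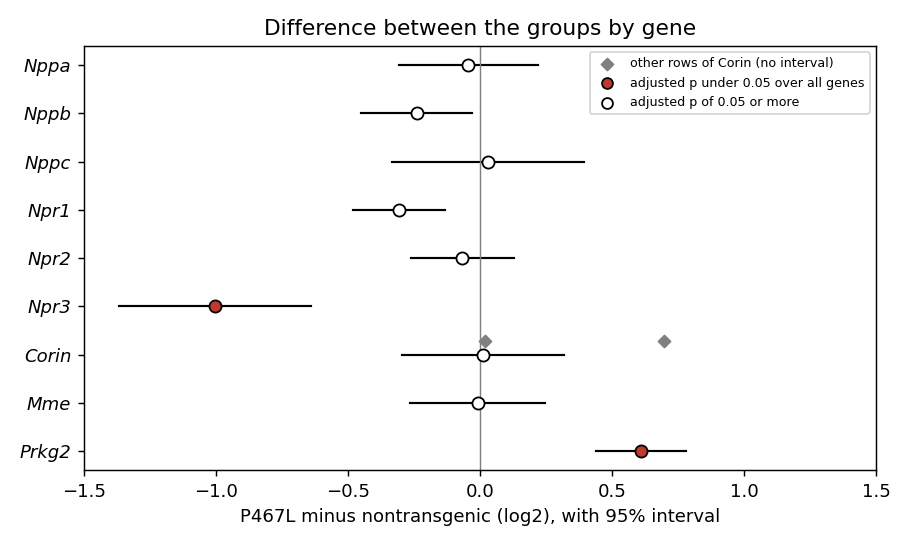
P467L minus nontransgenic difference of each gene in log2 units, with the 95% interval of the limma fit. Filled points had an adjusted p under 0.05 over all genes, and the grey diamonds are the other 2 rows of Corin. Npr3 lies at -1.004 and Prkg2 at 0.61, and the intervals of Nppa, Nppc, Npr2, Corin and Mme include 0.

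The peptide genes showed no difference past the threshold. Nppa, the atrial peptide precursor, was under background in all 7 P467L aortas (4.55 to 4.96, median 4.89). It was also under background in 4 of 5 nontransgenic ones, at 4.74, 5.20, 4.46, 4.81 and 5.08. The difference of -0.04 ± 0.12 (SE) is thus one between signals that, but for 1 array, were under the background level.

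Nppb, the B-type precursor, lay under background in all 12 aortas. P467L aortas had 3.86 to 4.37 (median 4.18), and nontransgenic aortas 4.44, 4.54, 4.38, 4.50 and 4.19. The difference was -0.24 ± 0.10 (SE), P467L was lower for all 5 replicate numbers, and the groups overlapped (limma adjusted p = 0.884). Deviations of Nppb ran against those of the upper quartile of the whole array (r = -0.82, rho = -0.89, over 12 aortas; r = -0.77 without the 2 farthest). Nppc (r = -0.62), Nppa (r = -0.44) and Prkg2 (r = -0.41) also ran against it, and Mme ran with it (r = 0.46). Without the 2 farthest arrays r lay between -0.18 and 0.04 for these genes. For Npr1, Npr2, Npr3 and Corin r lay between -0.30 and 0.22 over the 12 aortas. The upper quartiles lay between 6.10 and 6.38 in P467L and between 6.16 and 6.38 in nontransgenic arrays. With the upper quartile as a covariate the Nppb difference was -0.30 ± 0.07 (SE; limma adjusted p = 0.0925). Nppb also moved with 8 nerve and Schwann cell markers (r = 0.77, rho = 0.87; r = 0.70 without the 2 farthest), whose mean level lay between 4.91 and 5.28 in P467L and between 4.91 and 5.23 in nontransgenic aorta, with Dbh, Nefl and Prph below background. Their part in the Nppb difference was not tested.

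Nppc, the C-type precursor, was above background in all 12 aortas. It ranged from 5.81 to 6.43 in P467L (median 6.07), against 6.08, 6.80, 5.92, 5.89 and 5.64 in nontransgenic aortas. The P467L range lay wholly inside the nontransgenic one. The difference was 0.03 ± 0.17 (SE), with a 95% interval of -0.33 to 0.39.

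Of the enzymes, Mme had 6.10 to 6.55 in P467L (median 6.42) and 6.40, 6.08, 6.61, 6.64 and 6.13 in nontransgenic aortas, a difference of -0.01 ± 0.12 (SE; 95% interval -0.26 to 0.25). Mme moved with several marker lists inside the groups. For the brown adipocyte markers r was 0.67 (rho 0.60) over 12 aortas, and 0.53 without the 2 farthest. For the fibroblast markers r was 0.64 (rho 0.74), and 0.59 without the 2 farthest. For the macrophage markers r was 0.60 (rho 0.64), and 0.49 without the 2 farthest. Smooth muscle markers ran against Mme (r = -0.50, and -0.70 within P467L). Only the fat marker lists were used as covariates. With the brown adipocyte markers as covariate the Mme difference was 0.02 ± 0.10 (SE), and with the general adipocyte markers 0.03 ± 0.12 (SE).

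Corin was the only member with several rows, and these disagreed. The row used, with the highest mean (5.57), had 5.29 to 5.91 in P467L (median 5.58) and 5.51, 5.83, 5.96, 5.16 and 5.36 in nontransgenic aortas, a difference of 0.01 ± 0.14 (SE). The second row, with a mean of 5.51, had 5.25 to 6.55 in P467L, against 5.43, 4.56, 5.07, 5.34 and 5.12 in nontransgenic aortas. This row was fitted only among all 101175 rows, where it differed by 0.70 ± 0.21 (SE), with some overlap. It did not pass there (limma unadjusted p = 0.00638, adjusted p = 0.778), and neither did Npr3 or Prkg2. In that fit the SE of the row used was 0.16. The remaining row had a mean of 4.45, under background, and differed by 0.02 ± 0.10 (SE) in the fit of all rows. Over the 12 aortas the 2 brighter rows had an r of -0.12 with each other. The exons that each row covers were not looked up.

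**Figure D4:**
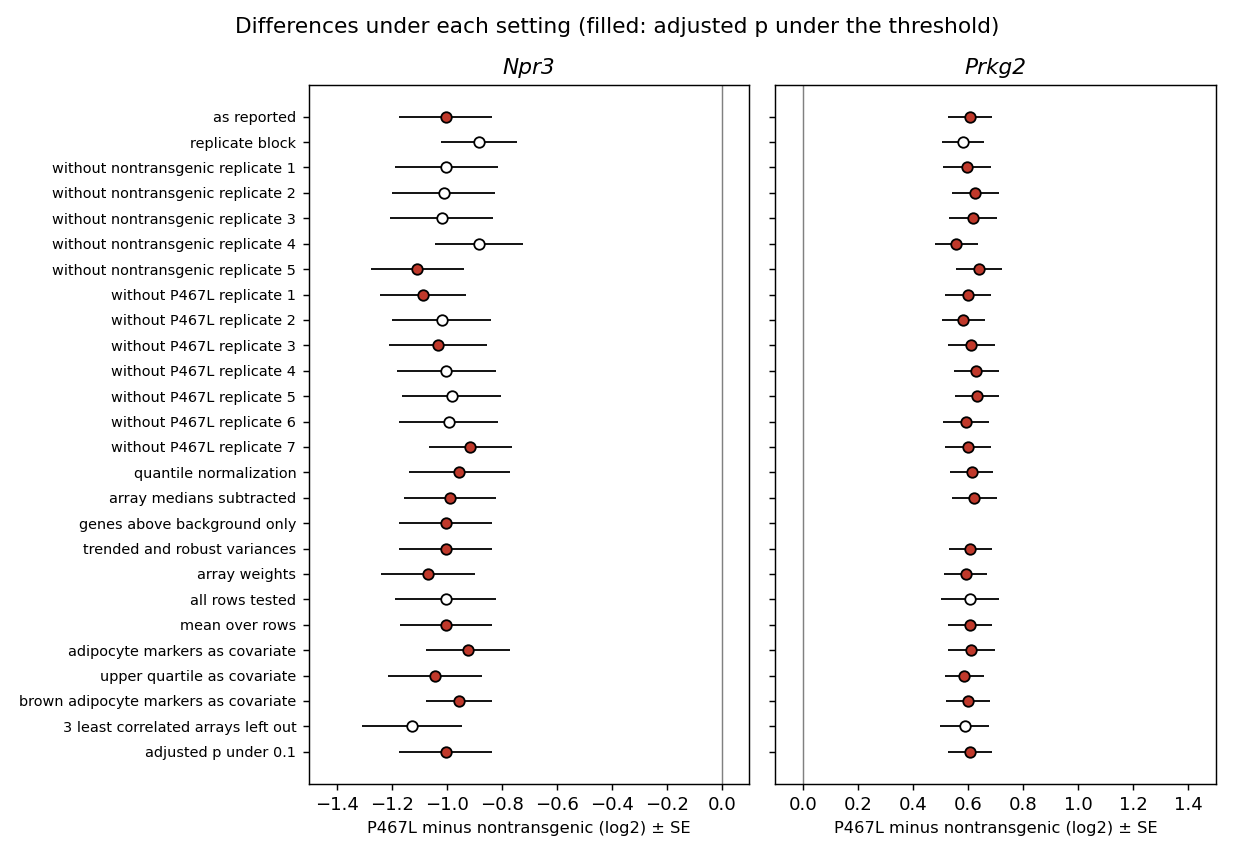
P467L minus nontransgenic difference (log2, with SE) of Npr3 (left) and Prkg2 (right) under the reported setting and each alternative, filled where the adjusted p over all genes tested was under the threshold. Npr3 stays between -1.13 and -0.88 and Prkg2 between 0.56 and 0.64; Prkg2 is not tested where only genes above background enter.

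Around these members, 71 further genes in 6 lists of the cyclic GMP pathway held 1 gene past the threshold, higher in P467L (1.41%, against 0.244% of all genes), and 44 of the 71 were above background. Their median difference was 0.02. The gene was Pde1c, a calmodulin-dependent phosphodiesterase that degrades cyclic nucleotides: it lay between 4.99 and 5.44 in P467L and between 4.48 and 4.92 in nontransgenic aorta, a difference of 0.51 ± 0.09 (SE; limma adjusted p = 0.0480), with a mean below background over the 12 arrays. With the replicate number as a block it did not pass (limma adjusted p = 0.223), and it did not in 10 of the 12 fits that left out 1 array (up to 0.155). None of the other 12 phosphodiesterase and export genes passed. Pde9a, which is specific for cyclic GMP, came next by p at 0.09 ± 0.08 (SE).

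Of 9 other guanylyl cyclase genes 0 passed, with a median of 0.02. Gucy1a1, a subunit of the nitric oxide receptor, differed by -0.17 ± 0.11 (SE), and Gucy2f, a photoreceptor cyclase, was under background. Of 16 effectors and targets 0 passed. Sox9, a transcription factor that Prkg2 regulates in rat cartilage, differed by 0.27 ± 0.10 (SE), and Pln, the phospholamban gene, by 0.34 ± 0.16 (SE). Prkg1, the kinase through which cyclic GMP relaxes smooth muscle, named after its values were seen, had 9.73 ± 0.66 in P467L and 9.52 ± 0.39 in nontransgenic aorta (SD, n = 7 and 5). Its 95% interval of -0.42 to 0.83 includes a difference as large as that of Prkg2.

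None of 12 genes of peptide processing and degradation passed: the convertase Pcsk5 differed by 0.27 ± 0.12 (SE) and the endothelin-converting enzyme Ece2 by 0.26 ± 0.13 (SE). None of 8 genes of inhibitory G protein signalling passed, with Adcy5, an adenylyl cyclase, at -0.26 ± 0.11 (SE) and Plcb3, a phospholipase C, at -0.10 ± 0.08 (SE). Of 13 transcriptional regulators of the peptide genes 0 passed. Nkx2-5 and Tbx20, both cardiac transcription factors, differed by -0.18 ± 0.08 (SE) and -0.45 ± 0.24 (SE). These 3 lists had medians of 0.04, 0.01 and -0.06.

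**Figure D5:**
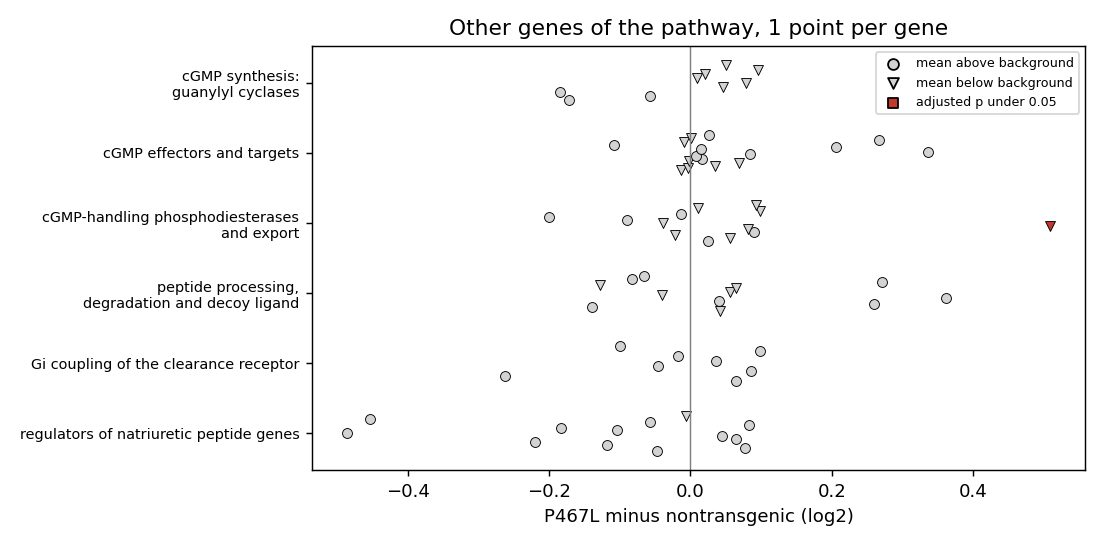
P467L minus nontransgenic difference (log2) of each measured gene of the 6 pathway lists, circles above and triangles below the background level, red where the adjusted p over all genes was under 0.05. Pde1c, at 0.51, is the 1 red point.

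The tissue label was checked against markers. All 8 smooth muscle markers were above background in the means, and their mean level lay between 10.15 and 10.53 in P467L and between 10.23 and 10.46 in nontransgenic aorta. The 12 endothelial markers had a mean level of 6.49 to 6.64 in P467L and 6.47 to 6.70 in nontransgenic aorta, with Kdr alone below background and 0 past the threshold. Members differed in opposite directions under this list mean: Emcn, named like Cldn5 after its values were seen, had 5.26 ± 0.19 in P467L and 6.14 ± 0.46 in nontransgenic aorta (SD, n = 7 and 5), with no overlap (-0.88 ± 0.17 SE; limma adjusted p = 0.0703). Cldn5 had 5.57 ± 0.28 in P467L and 5.06 ± 0.13 in nontransgenic aorta (SD, n = 7 and 5), with a limma adjusted p of 0.216. Of 9 cardiac muscle markers, 3 (Mybpc3, Myl2 and Sln) were below background and Tnnt2 was higher in P467L (6.06 against 5.24), in a list whose mean level lay between 5.43 and 5.88 in P467L and between 5.35 and 5.60 in nontransgenic aorta. The other 8 did not pass, and of the 9 markers 7 differed upward and 2 downward. Skeletal muscle markers stood apart in 1 array, P467L replicate 4 at 8.06 in a range of 4.84 to 8.06 in P467L and 4.77 to 5.53 in nontransgenic aorta (Myh1, Neb and Pvalb below background), and without it Npr3 differed by -1.001 ± 0.18 (SE) and Prkg2 by 0.63 ± 0.08 (SE). Of 10 fibroblast markers Mfap5 was lower in P467L (8.06 against 8.70), while the other 9 did not pass. In this list 5 markers differed upward and 5 downward, and its mean level lay between 7.88 and 8.09 in P467L and between 7.895 and 8.26 in nontransgenic aorta. No macrophage or nerve marker passed, and the macrophage list lay between 5.95 and 6.44 in P467L and between 5.96 and 6.51 in nontransgenic aorta. The part of these cell types in the results was not tested. Pparg itself, whose row may or may not read the human transgene, differed by 0.01 ± 0.12 (SE).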

How the data were processed

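Total RNA (about 50 ng per mouse) was amplified and hybridised to Affymetrix exon arrays. The authors deposited log2 intensities of 101175 rows; they used RMA in Affymetrix Power Tools with mm9, per the submitters' processing notes. For versions, probe set class and filters: not given in the sources used here. Summarising probes this way compresses differences of dim genes. For the p-values each difference is set against the spread between mice, with the variance of each gene drawn toward that of all genes. With 1 array per mouse, spread between mice and spread between arrays cannot be told apart. There were 0 columns of other samples. Rows were named from the platform annotation: 22754 had 1 gene symbol, 1522 several and 76899 none. The GRCm38.p6 RefSeq table left all symbols unchanged.

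P467L minus nontransgenic was fitted with lmFit and eBayes in limma 3.58.1 (R 4.3.3) over 12 arrays, 19687 genes and no covariate, with Benjamini-Hochberg adjustment and a threshold of 0.05, and tested on simulated data. Correlations were computed on deviations from group means, with no test. Same-numbered arrays of both groups deviated together (r between 0.227 and 0.398 over genes for 5 numbers, the own number being the best partner for 3), so the number was also used as a block; the labels do not say what it marks. Members and lists were chosen with earlier results of these data known. Named were all members, per pathway list the genes past the threshold and the 2 with the smallest p, the 5 genes most like Npr3 and Prkg2, and markers below background or past the threshold. No coordinates but those of promoter windows are given. The number of arrays limits the precision.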

Additional observations from a re-analysis of the deposited data

How the results depend on the processing

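Npr3 and Prkg2 kept their direction under every alternative that could be computed, with the call kept in 13 of 24 fits for Npr3 and 20 of 23 for Prkg2. As the groups do not overlap for either gene, leaving out arrays or using the replicate block could not change the direction. Of the members, 2 passed the threshold as reported, 1 when only genes above background entered (Prkg2 is then not tested), and 0 with the replicate block, with all 101175 rows tested (limma adjusted p = 0.234 for Npr3 and 0.222 for Prkg2) or without the 3 arrays least correlated with the rest (0.0776 and 0.0768). Leaving out 1 array gave between 1 and 2. For the pathway genes the count of 1 became 0 with the replicate block, with genes above background only, with all rows, with either fat marker list as covariate and without the 3 arrays, and lay between 0 and 1 when 1 array was left out; the cause was not tested. Over all genes 48 passed as reported, 30 with the replicate block, 76 after quantile normalization, 106 with the upper quartile as covariate, 9 of all rows, and 11 to 48 without 1 array. Corin, Mme, Nppc and Nppa changed sign under 8, 10, 5 and 3 settings, never past the threshold. The brown adipocyte covariate and the 3 left-out arrays (nontransgenic replicate 2, P467L replicates 1 and 2) were chosen after seeing the data. Detection calls were not used here, so values under 5.18 have no stated detection limit.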

Other observations

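Among the 36 pairs of the 9 genes, correlations of the deviations from group means over 12 aortas lay between -0.75 and 0.69, with a median size of 0.33, and 3 pairs exceeded 0.6 in size. Mme ran against Nppa (r = -0.75, rho = -0.69; -0.61 without the 2 arrays farthest from the median) and against Prkg2 (r = -0.73, rho = -0.74; -0.65 without the 2 farthest). Nppa and Prkg2 are both at or under background. Both also ran against the upper quartile of the array (r = -0.44 and -0.41), while Mme ran with it (r = 0.46). The part of the upper quartile in these pairs was not tested. Npr1 and Corin ran together (r = 0.69, rho = 0.76; 0.58 without the 2 farthest). These are descriptions of 12 arrays that share one normalization, and no test was made.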
